A study of Mus musculus with 2 samples.

Results

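The contractile apparatus of smooth muscle was followed through 31 genes that encode its filaments, the enzymes that switch contraction on and off, the anchors that tie filaments to the membrane, and the factors that transcribe them. The genes were listed by name and not by a cut-off on measured values. Earlier results of these data were known when they were chosen. All 31 were found among the 19357 genes of the deposited tables. Their transcripts were counted in single live-sorted cells from digested aortae of 17-week-old male Apoe-/- C57BL/6 mice, a line without apolipoprotein E, which both groups therefore lacked. The diabetic group had received 55 mg/kg of streptozotocin daily for 5 days from an age of 6 weeks, the control group citrate vehicle, and both were followed for 10 weeks. Streptozotocin kills the insulin-producing beta cells, so the diabetes is a chemically induced loss of insulin. Each group was 1 library made from the pooled cells of 4 mice. No difference between groups therefore has a replicate, and condition, pool and library cannot be told apart. All intervals are 95% intervals of counting error.

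Vascular smooth muscle contracts when calcium and calmodulin activate myosin light chain kinase, which phosphorylates the regulatory light chain of smooth muscle myosin and lets it pull on actin filaments. Calponin, caldesmon, tropomyosin and transgelin lie along those filaments, and desmin, vinculin, filamin and the alpha-actinins hold them to dense bodies and to the membrane. Most of the genes are driven by serum response factor, which binds the CArG box together with its coactivator myocardin, and their levels fall when smooth muscle cells leave the contractile state in an atherosclerotic artery.

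CArG boxes in the promoters of the genes are shown because the same element ties filament genes to the factor that transcribes them. The window searched was the 250 bases before the RefSeq start of each gene on GRCm38.p6, for CC and GG enclosing 6 letters that are all A or T, which reads the same way on both strands. Of the 31 genes 27 had an entry, and Tagln, Myh11, Myocd and Actg2 are named only. An exact box stood in 4 of the 27 (14.8%) and in 439 of all 27025 promoters (1.62%). A box with a single C or G among those 6 letters stood in 5 of the 27 (18.5%) against 8.33% of all promoters. Each sequence below holds 30 bases, written 5′ to 3′ on the strand of its gene, with the box in capitals. The Acta2, or smooth muscle alpha-actin, boxes lie 84 and 34 bases before the start, carry the single substitution, and overlap an exon of Acta2 in the GENCODE annotation. The Myl9 pair, at 161 and 99 bases, holds an exact box and then a substituted one. The Vcl box at 227 bases and both boxes of Srf, at 82 and 62 bases, are exact, and the Srf pair lies before the gene of the factor that binds such boxes.
Acta2, chr19:34255438-34255467, minus strand: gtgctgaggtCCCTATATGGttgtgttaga
Acta2, chr19:34255388-34255417, minus strand: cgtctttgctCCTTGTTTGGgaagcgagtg
Myl9, chr2:156775293-156775322, plus strand: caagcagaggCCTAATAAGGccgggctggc
Myl9, chr2:156775355-156775384, plus strand: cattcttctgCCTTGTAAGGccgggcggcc
Vcl, chr14:20929161-20929190, plus strand: cccactatgcCCTTATAAGGagcgccccgc
Srf, chr17:46556225-46556254, minus strand: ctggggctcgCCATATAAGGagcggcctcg
Srf, chr17:46556205-46556234, minus strand: agcggcctcgCCATAAAAGGaaacattgta
A match is a run of letters and not a measured binding site.

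The authors placed 3060 control and 2524 diabetic cells in 13 classes, of which VSMCs-1 and VSMCs-2 are vascular smooth muscle. VSMCs-1 held 134 control cells (323757 unique molecular identifiers, UMIs) and 159 diabetic cells (436147 UMIs), and VSMCs-2 held 496 (2783387 UMIs) and 856 (5718684 UMIs). VSMCs-1 made up 21.3% of the control muscle cells (exact Clopper-Pearson interval 18.1 to 24.7%) and 15.7% of the diabetic ones (13.5 to 18.1%). VSMCs-1 cells were shallower, with a median of 2128 and 2237 UMIs in control and diabetic cells against 5547 and 6523 in VSMCs-2. Of the 15 barcodes found in both libraries, 0 were in a muscle class in both. All 4 defining markers of smooth muscle, Acta2, Tagln, Myh11 and Cnn1, were present in both classes of both libraries, and together reached 32938 and 29130 CPM (UMIs scaled to a common total) in control and diabetic VSMCs-1, and 46995 and 45525 CPM in VSMCs-2. Transcripts of other cells were also present: haemoglobin genes held 1.89% of control and 3.70% of diabetic UMIs in VSMCs-1, and 0.0116% and 1.15% in VSMCs-2. In control VSMCs-1 99.3% of the UMIs of 5 erythroid markers came from 1 cell.

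The 31 genes together took 9.67% of all UMIs in control and 9.85% in diabetic VSMCs-2, and 7.88% and 7.33% in VSMCs-1. Among the other 11 classes the highest share was that of diabetic Fib-2. The shares were 0.571% and 0.544% in endothelial cells (ECs), 0.517% and 0.632% in the fibroblast class Fib-2, and 0.225% and 0.343% in macrophages (Mac), in control and diabetic cells. Acta2 alone gave 31.1% of the UMIs of the 31 genes in control VSMCs-2 and 29.2% in diabetic ones, and 26.2% and 24.9% in VSMCs-1. Tagln, transgelin, gave 12.9% and 12.1% in VSMCs-2, and the essential light chain gene Myl6 11.1% and 10.8%. At the other end, Myocd, the myocardin gene, gave 0.0349% and 0.0348% in VSMCs-2. These shares count 3' tags and are not levels per length of transcript.

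**Figure D1:**
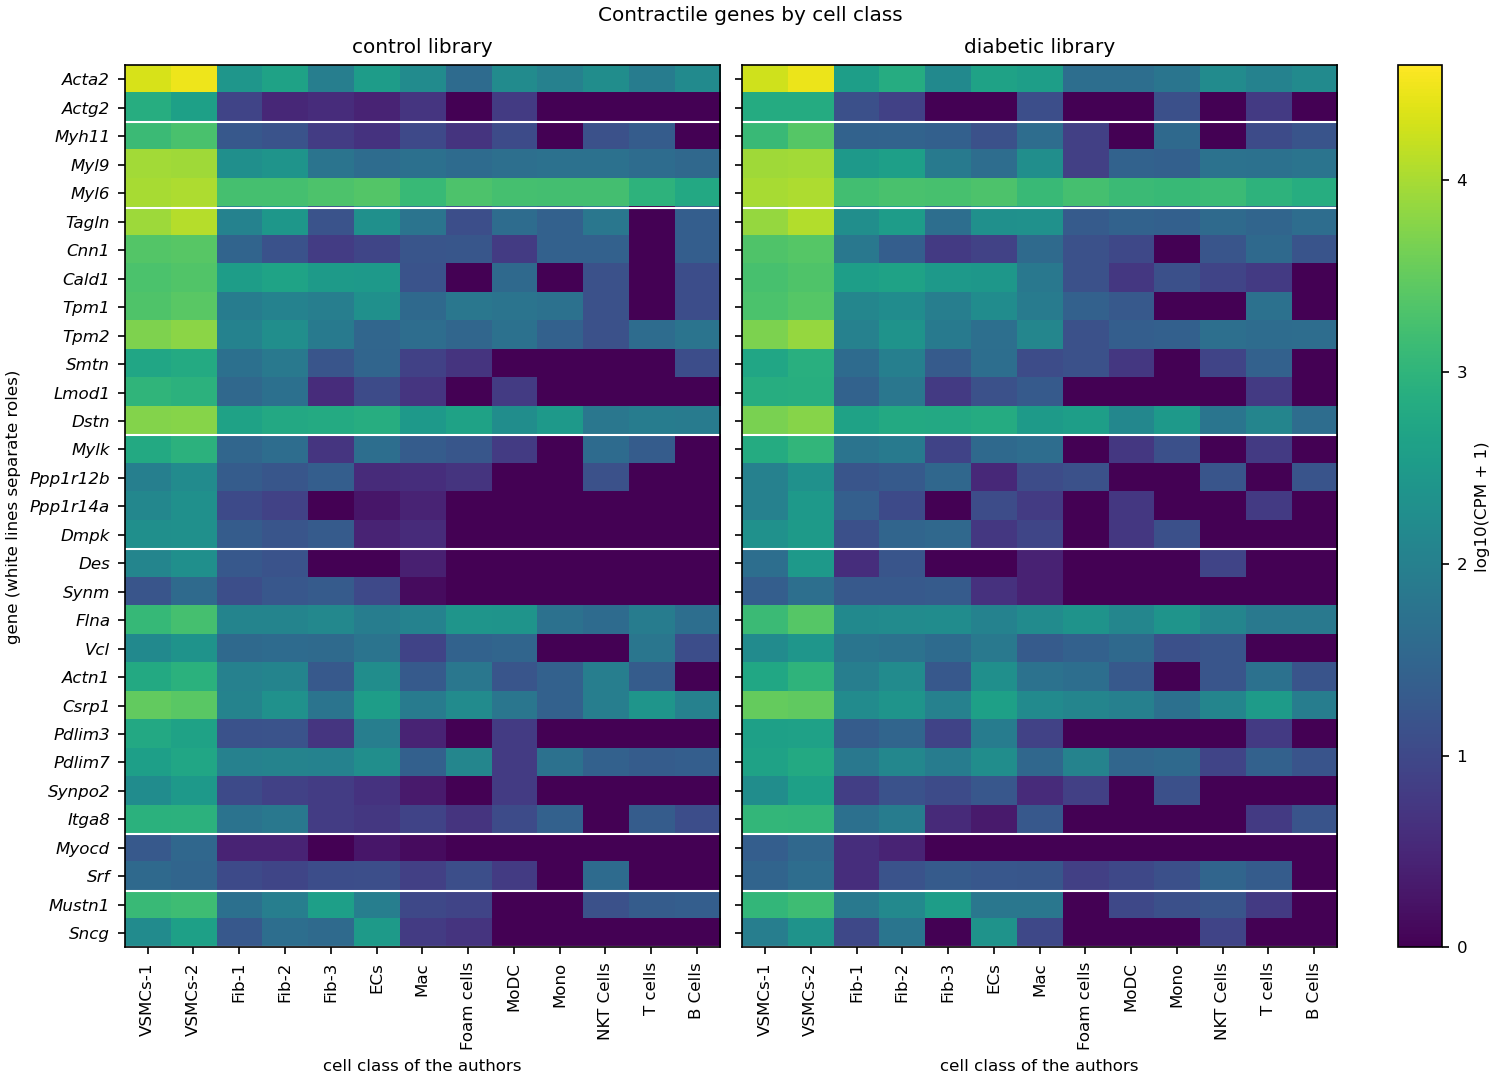
Level of each contractile gene in each of the authors' 13 cell classes, as log10 of CPM plus 1, in the control library (left) and the diabetic library (right); white lines separate the roles. The 2 muscle classes stand out in nearly every row, while Myl6 is bright in all classes and Sncg is about as bright in ECs as in VSMCs-2.

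The genes differed in how far they belonged to muscle. The defining genes were scarce in macrophages, as were Synpo2 at 0.367% and Pdlim3 at 0.435% of their VSMCs-2 level in control Mac. There, Acta2 stood at 0.539% of its VSMCs-2 level, Tagln at 0.456%, Myh11 (smooth muscle myosin heavy chain) at 0.475% and Cnn1 (calponin) at 0.604%. Myl6, which serves nonmuscle myosin as well, reached 21.7% of its VSMCs-2 level in control ECs and 19.6% in diabetic ones. Vcl, vinculin, reached 25.1% and 27.8% in ECs, and Cald1, caldesmon, 20.3% and 20.9% in Fib-2. Mustn1, a small nuclear protein gene of the musculoskeletal system, reached 25.8% and 24.3% in the fibroblast class Fib-3. Sncg, gamma-synuclein, was not restricted to muscle, with 77.6% of its VSMCs-2 level in control ECs and 100.2% in diabetic ECs. Over all 31 genes the median level in ECs was 4.72% of that in control VSMCs-2 and 3.97% in the diabetic library, and 11 and 10 of the 31 were at 10% or more.

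VSMCs-1 carried less of the contractile programme than VSMCs-2, by a small margin that was uneven across the genes. Summed over the 31 genes, the VSMCs-1 level was 0.815 of the VSMCs-2 level in control cells (0.804 to 0.825) and 0.745 in diabetic cells (0.736 to 0.753). A gene is counted below as higher or lower where the sums compared hold at least 30 UMIs, the CPM ratio is at least 1.5-fold and its interval excludes 1. All 31 genes reached 30 UMIs. In control cells 1 was higher and 6 were lower in VSMCs-1, against 4.75% higher and 4.92% lower of the 7115 genes that reached 30 UMIs. In diabetic cells 0 were higher and 15 were lower, against 6.2% higher and 6.34% lower of 9085 genes. The median log2 ratio was -0.31 over the 31 genes in control cells and -0.58 in diabetic cells, beside -0.04 and -0.03 over all genes. The 6 genes lower in control cells were all among the 15 lower in diabetic cells, which is 100% of the former list and 40% of the latter. The classes were made on these same cells, so the comparison describes them and is no test.

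Among the actins the pair of genes went separate ways. Acta2 stood at 20682 CPM in VSMCs-1 and 30053 CPM in VSMCs-2 of control cells, and at 18253 and 28704 CPM in diabetic cells. The level was lower in VSMCs-1 in both libraries, with ratios of 0.688 (0.671 to 0.706) and 0.636 (0.622 to 0.650), of which the second is past the size rule. Actg2, gamma smooth muscle actin and the enteric form of the filament, stood at 719.7 CPM in VSMCs-1 and 412 CPM in VSMCs-2 of control cells, and at 667 and 670.1 CPM in diabetic cells. It was thus 1.75-fold higher in control VSMCs-1 (1.51 to 2.01) and level in diabetic cells (ratio 0.996, 0.881 to 1.12).

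Of the myosin chains only the heavy chain separated the classes by the size rule. Myh11 stood at 1368 CPM in VSMCs-1 and 1933 CPM in VSMCs-2 of control cells, and at 1298 and 2473 CPM in diabetic cells, a ratio of 0.525 (0.482 to 0.571) in the latter. Myl9, the regulatory light chain that the kinase phosphorylates, stood at 9010.0 and 8632 CPM in control cells and at 8875 and 8978 CPM in diabetic cells, so the classes were nearly level. Myl6 was at 0.938 of its VSMCs-2 level in both libraries.

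On the thin filament Tagln was the gene with the lowest ratios. It stood at 8519 CPM in VSMCs-1 and 12479 CPM in VSMCs-2 of control cells, and at 7406 and 11883 CPM in diabetic cells, with ratios of 0.683 and 0.623. Cnn1 was closer, at 2369 and 2530.0 CPM in control cells and 2174 and 2465 CPM in diabetic cells. Tpm2, beta-tropomyosin, stood at 5112 and 6207 CPM in control cells and 4886 and 7368 CPM in diabetic cells, where its ratio was 0.663 (0.635 to 0.693). The other thin filament genes, Cald1, Tpm1, Smtn, Lmod1 and Dstn, had ratios between 0.680 (Smtn, diabetic) and 1.12 (Lmod1, control), none past the size rule.

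Of the 4 genes that set the phosphorylation of myosin, 2 were lower in control VSMCs-1 (Ppp1r12b and Ppp1r14a) and all 4 in diabetic VSMCs-1. Mylk, the light chain kinase, stood at 624 CPM in VSMCs-1 and 886 CPM in VSMCs-2 of control cells, and at 669.5 and 1051 CPM in diabetic cells (ratio 0.637, 0.564 to 0.716). Ppp1r12b, a targeting subunit of the opposing phosphatase, had 31 and 466 UMIs (95.8 and 167 CPM) in control cells and 46 and 1185 UMIs (105.5 and 207 CPM) in diabetic cells, ratios of 0.572 and 0.509. Ppp1r14a, the phosphatase inhibitor CPI-17, stood at 133 and 199.8 CPM in control cells and at 105.5 and 313 CPM in diabetic cells, where its ratio was 0.337 (0.246 to 0.451). Dmpk, the myotonic dystrophy kinase, was level in control cells, at 192 and 199 CPM, and stood at 215.5 and 325 CPM in diabetic cells (ratio 0.664).

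The anchoring genes held the largest gap between the classes. Des, the desmin of muscle intermediate filaments, stood at 120.5 CPM (39 UMIs) in VSMCs-1 and 192 CPM (533 UMIs) in VSMCs-2 of control cells, a ratio of 0.629 (0.442 to 0.871). In diabetic cells it stood at 45.9 CPM (20 UMIs) and 296 CPM (1694 UMIs), a ratio of 0.155 (0.0943 to 0.240). Synm, the desmin partner synemin, was near the limit of detection in VSMCs-1 with 5 and 10 UMIs against 106 and 270 in VSMCs-2. Synpo2, an actin-bundling protein, stood at 173 and 313 CPM in control cells and at 179 and 414 CPM in diabetic cells, and was lower in VSMCs-1 in both, with ratios of 0.553 and 0.432.

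The membrane anchors followed at smaller size. Flna, the actin cross-linker filamin A, stood at 1195 and 1763 CPM in control cells and at 1339 and 2439 CPM in diabetic cells, a ratio of 0.549 (0.504 to 0.596) in the latter. Actn1, alpha-actinin, stood at 612 and 862 CPM in control cells and at 555 and 971 CPM in diabetic cells (ratio 0.572). Vcl stood at 154 and 226 CPM in control cells and at 167 and 257 CPM in diabetic cells (ratio 0.651). The LIM protein genes did not follow: Csrp1 was at 1.16 and 1.09 of its VSMCs-2 level and Pdlim3 at 1.34 and 0.971, while Pdlim7 was at 0.735 and 0.709, in control and diabetic cells. Itga8, the integrin alpha chain of vascular smooth muscle, was level at 0.954 and 1.06.

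The factors were too sparse to separate the classes. Myocd had 6 UMIs in control and 10 in diabetic VSMCs-1 against 94 and 196 in VSMCs-2, and Srf 12 and 13 against 85 and 250, and all 4 intervals included 1. Sncg was lower in VSMCs-1 in both libraries to the same degree, with 167 against 416 CPM in control cells (ratio 0.401) and 91.7 against 228 CPM in diabetic cells (ratio 0.402). Mustn1 stood at 1337 and 1510 CPM in control cells and 1117 and 1510 CPM in diabetic cells.

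**Figure D2:**
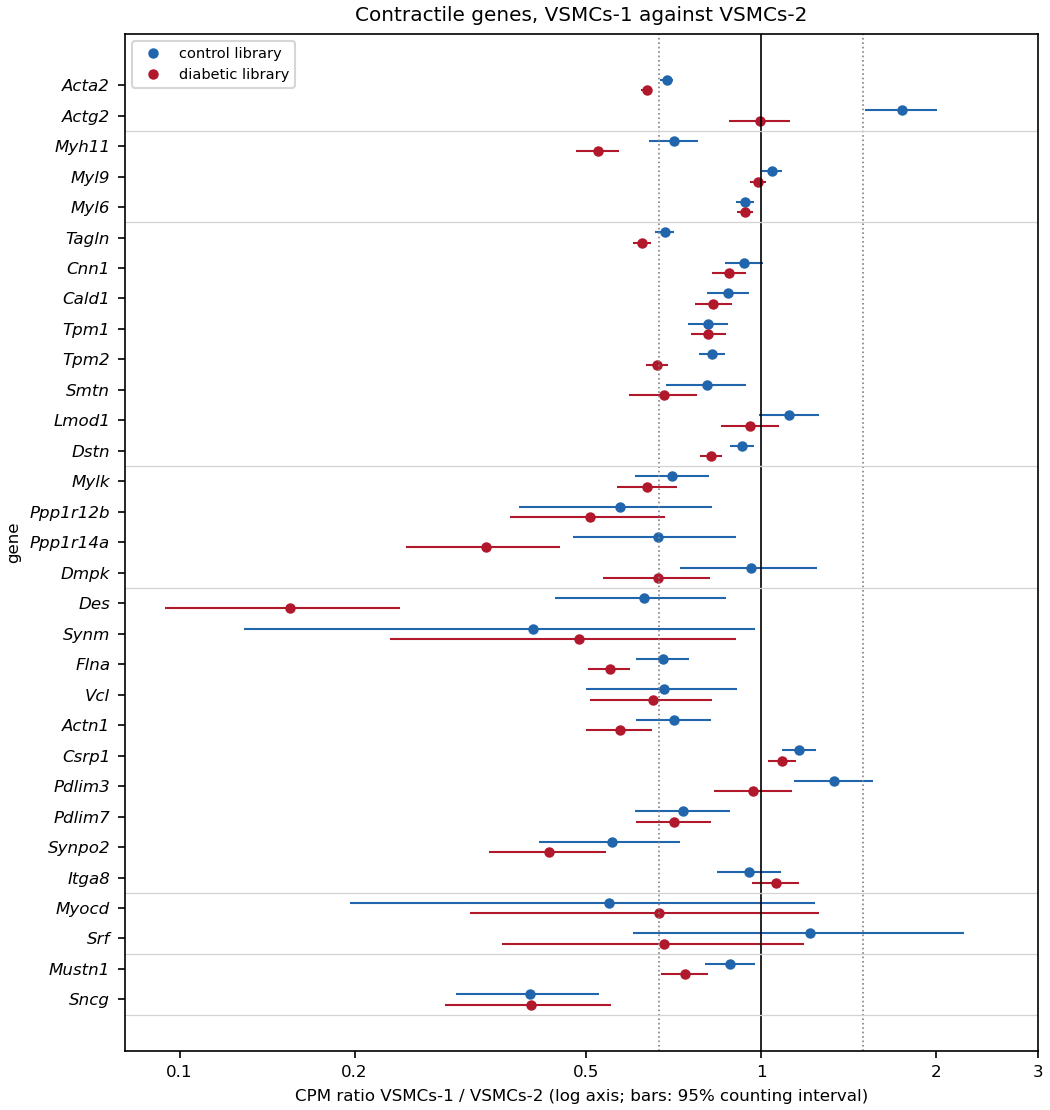
CPM in VSMCs-1 divided by CPM in VSMCs-2 for each of the 31 genes (log axis) in the control library (blue) and the diabetic library (red), with 95% counting intervals; the dotted lines mark 1.5-fold either way and grey lines separate the roles. Most points lie left of 1, Des in the diabetic library lies farthest left at 0.155, and Actg2 in the control library lies farthest right at 1.75.

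Depth and scaling touched these counts. In control cells 13 genes were lower in VSMCs-1 with trimmed mean (TMM) scaling in place of 6, a scaling that moved the median of all genes by -0.11 on the log2 scale. With only the cells of 1000 to 4000 UMIs, which leaves 86 VSMCs-1 and 72 VSMCs-2 control cells and 77 and 39 diabetic ones, 2 and 4 genes were lower in VSMCs-1, Acta2, Tagln and Myh11 were no longer past the size rule in diabetic cells, Actg2 was 6.74-fold higher in control VSMCs-1, and Dmpk turned to 1.59 in diabetic cells. Acta2 and Tagln in diabetic cells also missed 1.5-fold with every cell weighted equally and with cells thinned to 1000 UMIs, and Tpm2 missed it under 7 of the 12 alternatives. Des in diabetic cells and Sncg in both libraries were lower in VSMCs-1 under all 12.

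Diabetic VSMCs-2 kept the filament genes near their control level, with more transcripts of an actin isoform, of 2 regulators of myosin phosphorylation and of desmin, and fewer of Sncg. Of the 31 genes 4 were higher (Actg2, Ppp1r14a, Dmpk and Des) and 1 was lower (Sncg), against 4.77% higher and 3.9% lower of 9729 genes. The median log2 ratio was 0.18 over the 31 genes and 0.02 over all genes, and the sum of the 31 was 1.02-fold its control level (1.01 to 1.02). Intervals of any size lay above 1 for 18 genes and below 1 for 6, against 11.3% above and 12.2% below of the 9729 genes, of which many had fewer UMIs and wider intervals.

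The actin isoforms differed in diabetic VSMCs-2: Acta2 was at 0.955 of the control level (30053 and 28704 CPM in control and diabetic cells), and Actg2 at 1.62 (412 and 670.1 CPM; 1.52 to 1.74). Of the myosin chains, Myh11 was at 1.28 (1933 and 2473 CPM; 1.24 to 1.32), under the size rule, while Myl9 and Myl6 were at 1.04 and 0.992. The thin filament genes lay between 0.846 (Lmod1, the actin nucleator leiomodin) and 1.19 (Smtn, smoothelin), with Tagln at 0.952, Cnn1 at 0.974 and Tpm2 at 1.19. None of the 8 genes of the thin filament passed the size rule.

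The ratios of all 4 genes of contraction control lay above 1 in diabetic VSMCs-2 over all cells. Ppp1r14a was 1.57-fold higher (199.8 and 313 CPM; 1.43 to 1.73) and Dmpk 1.63-fold (199 and 325 CPM; 1.48 to 1.79). Neither held in every setting: Ppp1r14a was at 1.39 with cells thinned to 1000 UMIs and at 1.46 in cells of 1000 to 4000 UMIs, where Dmpk turned to 0.777. Mylk at 1.19 and Ppp1r12b at 1.24 had intervals above 1 and did not reach 1.5-fold.

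Among the anchors, Des was 1.55-fold higher in diabetic VSMCs-2 (192 and 296 CPM; 1.40 to 1.71), and at 1.42 with cells thinned to 1000 UMIs. Flna at 1.38, Synpo2 at 1.32 and Srf, the transcription factor, at 1.43 had intervals above 1 without reaching 1.5-fold. Myocd was level at 1.01 (94 and 196 UMIs; 0.790 to 1.31), and Mustn1 was at 1.00. Sncg stood at 416 CPM in the control and 228 CPM in the diabetic library, a ratio of 0.547 (0.505 to 0.593).

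In diabetic VSMCs-1 the genes did not repeat that pattern. Of the 28 genes with at least 30 UMIs 0 were higher and 2 were lower (Des and Sncg), against 3.23% higher and 4.82% lower of 3032 genes. Myocd, Srf and Synm did not reach 30 UMIs. The median log2 ratio was -0.09 over the 28 genes and -0.02 over all genes, and the sum of all 31 genes was at 0.930 of its control level (0.915 to 0.946). Des stood at 120.5 CPM in the control and 45.9 CPM in the diabetic library (39 and 20 UMIs), a ratio of 0.381 (0.210 to 0.669). Sncg stood at 167 and 91.7 CPM (54 and 40 UMIs), a ratio of 0.550 (0.356 to 0.843) that was close to the one in VSMCs-2. Actg2 stood at 719.7 and 667 CPM, Ppp1r14a at 133 and 105.5 CPM and Dmpk at 192 and 215.5 CPM, all with intervals that included 1.

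**Figure D3:**
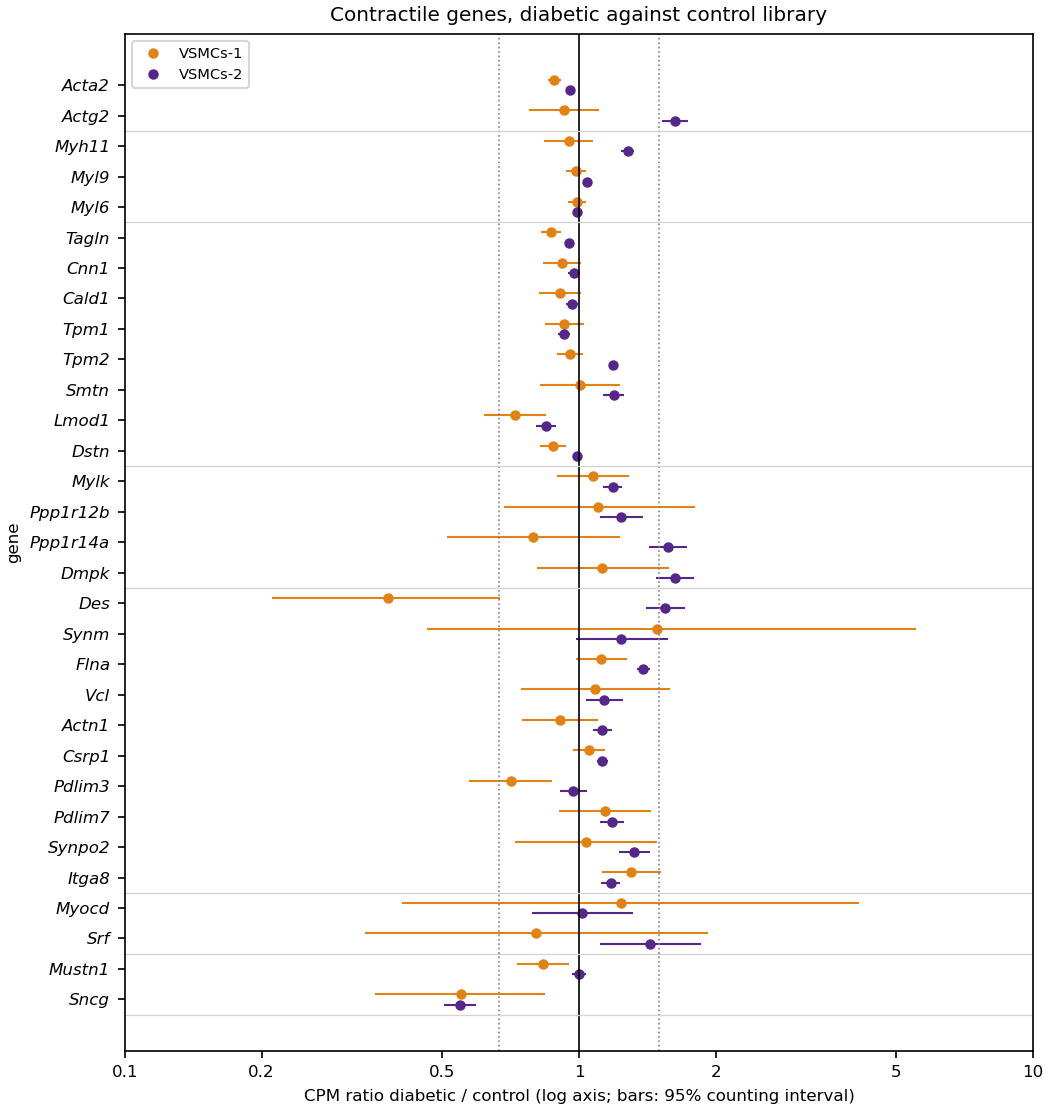
CPM in the diabetic library divided by CPM in the control library for each of the 31 genes (log axis) in VSMCs-1 (orange) and VSMCs-2 (purple), with 95% counting intervals; the dotted lines mark 1.5-fold either way. Des lies right of 1 in VSMCs-2 (1.55) and left of it in VSMCs-1 (0.381), while Sncg lies left of 1 in both.

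The diabetic over control ratio in VSMCs-1, divided by that in VSMCs-2, had an interval below 1 for 14 of the 31 genes and above 1 for 0, against 3.01% below and 2.53% above of the 9815 genes with a UMI in all 4 sums. Intervals narrow with UMIs, and the shares over all genes include many sparse ones. The smallest quotients were 0.246 for Des (0.142 to 0.426), 0.506 for Ppp1r14a (0.331 to 0.776) and 0.571 for Actg2 (0.475 to 0.686). The gap between the class sums was wider in the diabetic library, where the VSMCs-1 sum was lower and the VSMCs-2 sum slightly higher than in control. With 1 library a group these intervals hold counting error alone. In the cells of 1000 to 4000 UMIs, Actg2 in VSMCs-2 was 5.91-fold higher in the diabetic library, and the ratio of Sncg turned to 1.10.

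Markers of other cells moved with the groups in the same classes. In VSMCs-2 the 8 macrophage markers summed to 214 CPM in the control and 49.5 CPM in the diabetic library, the 8 fibroblast markers to 2040.0 and 1210 CPM, the 7 pericyte markers to 1283 and 2343 CPM and the 5 erythroid markers to 116 and 11577 CPM. In VSMCs-1 the same lists summed to 309 and 80.3 CPM (macrophage), 2165 and 1662 CPM (fibroblast), 2730.0 and 2657 CPM (pericyte) and 18990 and 37121 CPM (erythroid). A single cell held 99.3% of the control and 45.4% of the diabetic erythroid UMIs there, so those sums do not give the level of most cells. Most of the pericyte sum was Rgs5 in VSMCs-2 of both libraries and in control VSMCs-1. That gene is also on the list of contraction control below, so the sum does not separate pericyte transcripts from those of muscle. The part of these transcripts in the contractile values was not tested. A further comparison left out cells carrying other-type markers or haemoglobin, among them 68 control and 103 diabetic VSMCs-2 cells. There the 4 higher and 1 lower genes of diabetic VSMCs-2 stayed past the size rule, and Srf joined the higher ones. Between the classes, Des was no longer past it in control cells, nor Tpm2, Dmpk and Synm in diabetic cells.

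Contractile transcripts varied more from cell to cell in VSMCs-1. With every cell thinned to 1000 UMIs, which left out 25 control and 38 diabetic VSMCs-1 cells and 0 of VSMCs-2, the 31 genes took a median of 8.1% of UMIs in control and 7.2% in diabetic VSMCs-1 cells, and 9.8% and 9.9% in VSMCs-2 cells. The coefficient of variation was 0.440 and 0.444 in VSMCs-1 and 0.291 and 0.254 in VSMCs-2, where counting alone would give between 0.096 and 0.110. Cells with under 2% were few in every group, 6 of 109 and 5 of 121 in VSMCs-1 and 3 of 496 and 3 of 856 in VSMCs-2. Some VSMCs-1 cells were rich in markers of other cells. A single cell held 83.9% of control and 58.4% of diabetic adipocyte marker UMIs, and 88.2% and 84.2% of Schwann marker UMIs. Adipocyte markers summed to 1934 and 1080 CPM in VSMCs-1 and to 368 and 290 CPM in VSMCs-2. The part of such cells in the wider spread was not tested.

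**Figure D4:**
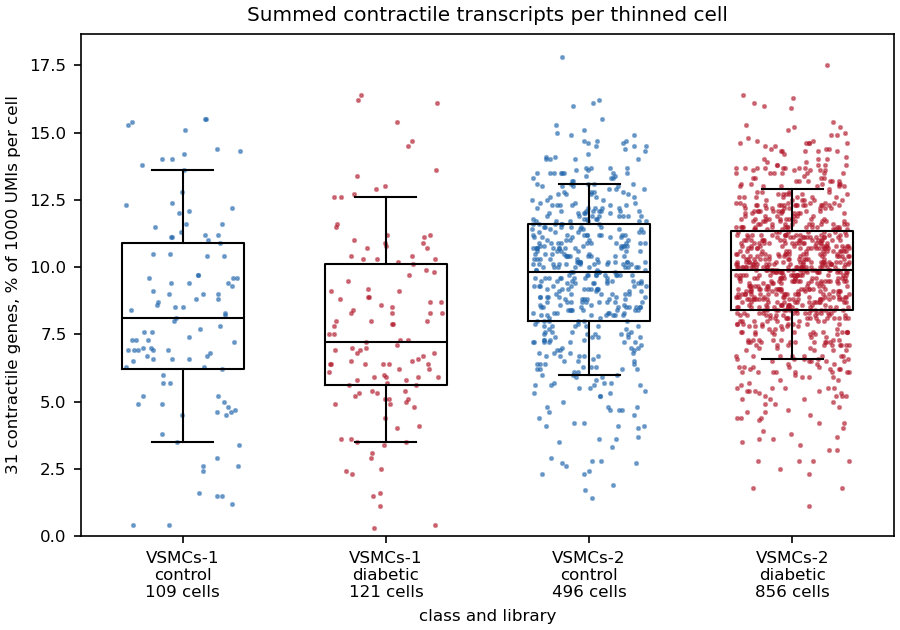
Share of UMIs from the 31 contractile genes in each muscle cell thinned to 1000 UMIs, as percent, by class and library; boxes span the quartiles around the median and whiskers reach the 10th and 90th percentiles. VSMCs-1 cells spread lower and wider (medians 8.1 and 7.2%) than VSMCs-2 cells (9.8 and 9.9%).

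Within VSMCs-2 a core of abundant filament genes varied together from cell to cell. Most other genes, many of them sparse, had weak correlations with the rest. Across cells thinned to 2000 UMIs (496 control and 856 diabetic cells), the Spearman correlation of each gene with the sum of the other 30 was highest for Tpm2, at 0.679 and 0.601, and for Acta2, at 0.642 and 0.612. Myl9 reached 0.611 and 0.501. Not all filament genes did so: Cald1 was at 0.211 and 0.208, Smtn at 0.162 and 0.211 and Lmod1 at 0.133 and 0.127. Vcl, Actn1, Srf, Pdlim7, Synm and Dmpk lay between -0.0134 and 0.132. Acta2 had a mean of 59.9 and 56.8 UMIs a thinned cell, Cald1 4.48 and 4.36, Smtn 1.26 and 1.61 and Srf 0.0605 and 0.0759. Counting error lowers the correlation of sparse genes, so a low value does not show that such a gene varies apart from the core. Sncg, at -0.164 and -0.221, and Mustn1, at -0.154 and -0.088, were negative in both libraries, and the pair correlated with each other at 0.327 and 0.278. The cells share their library, and the shares of a fixed total compete with each other, so these values describe the cells and carry no test.

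Des, Actg2 and Sncg were unevenly spread over VSMCs-2 cells, and were singled out after their values were seen. In VSMCs-2 Des had a UMI in 20.2% of control and 25.5% of diabetic cells, and the 50 of 496 and 86 of 856 cells with most Des UMIs held 83.1% and 74.6% of them. Actg2 had a UMI in 40.3% and 58.8% of cells, with 61.0% and 41.1% of UMIs in as many top cells, so in the diabetic library it was spread over more cells. Sncg went the other way, from 37.5% to 25.9% of cells and from 65.2% to 80.7% of UMIs in the top cells. At 1000 UMIs a cell the shares of cells with a UMI ran the same way: 20.8% and 34.4% for Actg2, 10.7% and 14.5% for Des, and 21.6% and 11.6% for Sncg. The other genes past the size rule were in most cells before thinning, Ppp1r14a in 58.3% and 78.6% and Dmpk in 62.3% and 81.2%. At 1000 UMIs a cell they were in 17.3% and 24.4% (Ppp1r14a) and in 16.7% and 26.75% (Dmpk). Their share of UMIs in the top cells was not examined. Acta2 was found in 100% and 99.9% of cells, with 18.7% and 20.3% of its UMIs in the top cells.

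Contractile transcripts outside muscle were higher in the diabetic library in macrophages and in Fib-2 fibroblasts, and leaned the same way in Fib-1. In Mac 21 of the 31 genes reached 30 UMIs and 17 were higher, against 8.79% of 7373 genes, and in Fib-2 29 reached it and 11 were higher, against 5.43% of 9281 genes. In ECs 18 reached it and 0 were higher, against 4.18% of 6096 genes. Genes under 30 UMIs are not counted, so these are not counts over the whole set. The median log2 ratio was 0.43 over 18 genes in Fib-1, close to 0.47 over 29 genes in Fib-2, and 0.01 over 12 genes in Fib-3. Over all genes it was -0.08, 0.03 and -0.08 in these classes. The sum of the 31 genes was less alike, at 1.075 of its control level in Fib-1 (1.006 to 1.149), 1.224 in Fib-2 (1.197 to 1.251) and 0.971 in Fib-3 (0.914 to 1.031). A single cell held 22.8% of the UMIs of the 4 defining genes in diabetic Fib-1, and 26.2% and 19.1% in control and diabetic Mac. In Mac Acta2 stood at 162 CPM in the control and 375 CPM in the diabetic library (424 and 424 UMIs; ratio 2.32, 2.02 to 2.66), Tagln at 57.0 and 214 CPM (ratio 3.76) and Myh11 at 9.17 and 43.4 CPM (24 and 49 UMIs; ratio 4.73). In Fib-2 Acta2 stood at 442 and 691 CPM (ratio 1.56) and Myl9 at 235 and 387 CPM (ratio 1.65).

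The macrophage levels of the 4 defining genes lay close together as shares of the VSMCs-2 level in each library, from 0.456 to 0.604% in control and from 1.31 to 1.80% in diabetic cells. Srf did not share that range, with 21.3% and 36.5% in Mac. Over single Mac cells the median share of UMIs from the 31 genes was 0.191% in control and 0.216% in diabetic cells, while the highest cell held 4.72% and 6.87%. VSMCs-2 made up 16.2% of annotated control cells and 33.9% of annotated diabetic cells. RNA set free from muscle cells and muscle cells caught with another cell under 1 barcode would both appear in these sums. Their part in the macrophage and fibroblast values was not tested.

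**Figure D5:**
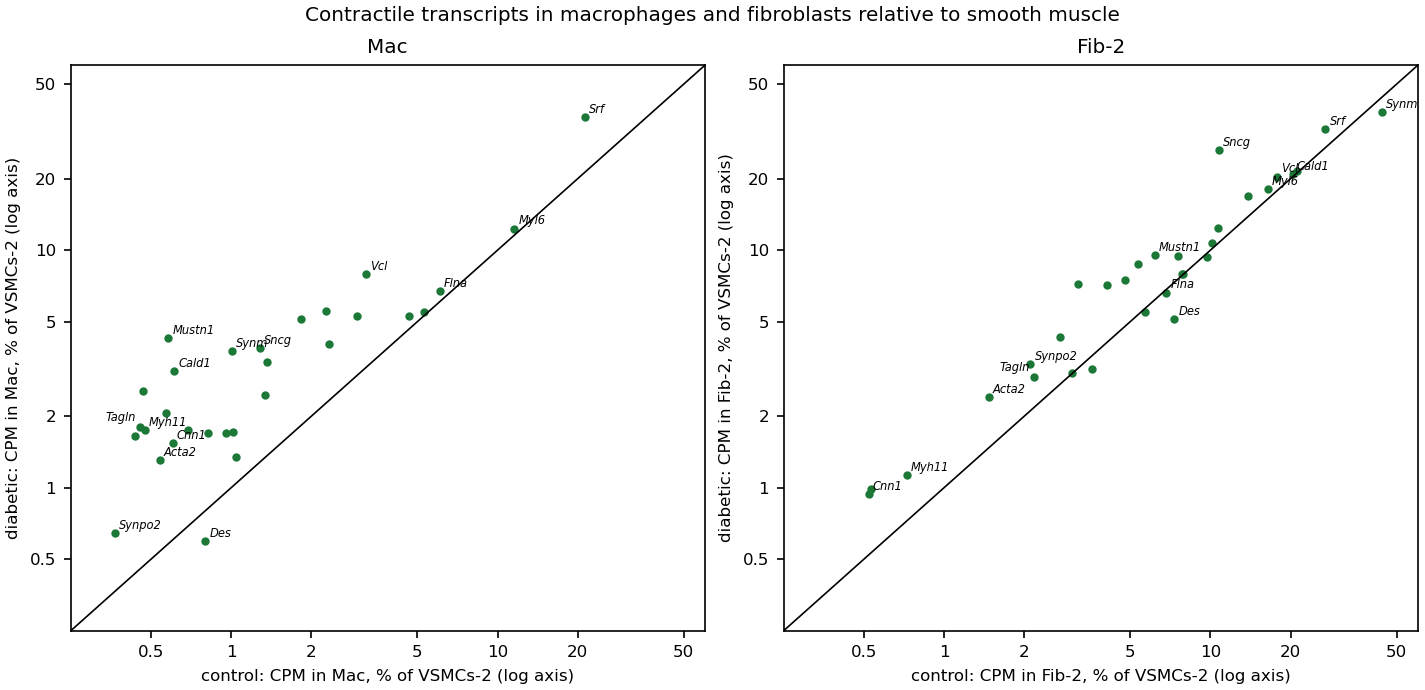
Level of each contractile gene in Mac (left) and Fib-2 (right) as percent of its VSMCs-2 level in the same library, control on the horizontal and diabetic on the vertical axis (log axes, line of equality drawn; genes at 0 in either library are left out and only some genes are named). In Mac the 4 defining genes lie above the line, between 0.456 and 0.604% in control and between 1.31 and 1.80% in diabetic cells, and Srf lies at 21.3% and 36.5%.

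Genes around the contractile apparatus were read from 5 further lists, in which only genes with at least 30 UMIs are counted. Of 31 genes of dense bodies, adhesion and the costamere, 6 were lower and 0 higher in VSMCs-1 than in VSMCs-2 of control cells, and 9 and 0 of 31 in diabetic cells, where 4.92% and 6.34% of all genes tested were lower and 4.75% and 6.2% higher. The same shares are the background of the other lists between the classes. Itga5, the fibronectin receptor chain, was at 0.533 and 0.320 of its VSMCs-2 level, and Lims1, an adaptor of integrin adhesions, at 0.386 and 0.359. In control cells Fhl2 at 0.315 and Tns1, tensin, at 0.619 were also among the 4 largest, and in diabetic cells Sgca, a sarcoglycan, at 0.427 and Dmd, dystrophin, at 0.486. Of the cytoskeleton that other cells share, 3 of 21 genes were lower in control VSMCs-1 (Tln1, talin, at 0.529, Actn4 at 0.624 and Msn, moesin, at 0.636) and 5 of 22 in diabetic VSMCs-1, led by Flnc at 0.358. In the diabetic cells Myl12b at 1.80 and Tpm4 at 1.62, a nonmuscle light chain and tropomyosin, were higher in VSMCs-1.

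Among kinases, phosphatases and cyclic GMP signalling, 6 of 23 genes were lower and 1 higher in control VSMCs-1. Gucy1a1, a chain of the nitric oxide receptor, was at 0.391, Rgs2 at 0.435 and Camk2g at 0.561, while Rgs5, a brake on G protein signalling that also marks pericytes, was 2.50-fold higher (2313 against 925 CPM). In diabetic cells 8 of 25 were lower, among them Pde3a at 0.389 and Map3k7cl at 0.403. The genes higher there were Pde5a, the cyclic GMP phosphodiesterase, at 2.0 and Ednra, the endothelin A receptor, at 9.83 (18 UMIs in VSMCs-1 and 24 in VSMCs-2). Of the factors that control contractile genes, 4 of 21 were lower in control VSMCs-1 and 8 of 28 in diabetic VSMCs-1. Klf2, a flow-responsive factor, was at 0.291 and 0.155, and the Notch target Heyl at 0.325 and 0.313. Prrx1, a mesenchymal homeobox gene, was higher in VSMCs-1 in both, at 1.81 and 2.11.

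Between libraries these 4 lists held few calls in VSMCs-2, where 4.77% of all genes tested were higher and 3.9% lower. Rgs5 was 2.09-fold higher in diabetic cells (925 and 1937 CPM) and Ppp1r12c, a further phosphatase subunit, 1.52-fold, while Map3k7cl at 0.528 and Prkg1, the cyclic GMP-dependent kinase, at 0.560 were lower, of 25 genes. Of 28 factors Mkl1, the myocardin-related coactivator, was at 1.97 (19 and 77 UMIs), Mef2d at 1.56 and the Notch ligand Jag1 at 0.658. Of 31 dense body and adhesion genes Fhl2, at 0.475, was lower and 0 were higher, and of 22 shared cytoskeletal genes 0 were called either way. In VSMCs-1 3.23% of all genes tested were higher and 4.82% lower. Of 8 factors 2 were higher, Klf4 at 1.94 (26 and 68 UMIs) and Gata6 at 2.29, and 0 lower. Of 26 dense body and adhesion genes 1 was higher (Tns1 at 1.55) and 3 lower (Itga7 at 0.510, Dmd at 0.584 and Lims2 at 0.594). Of 19 contraction control genes 1 was higher (Pde5a at 1.84) and 2 lower, among them Rgs4 at 0.636. Of 20 shared cytoskeletal genes 0 were higher and 2 lower (Cfl2 at 0.555 and Actn4 at 0.664).

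Genes of modulated smooth muscle, those that cells gain on leaving the contractile state, differed between the libraries in both classes. In VSMCs-2 12 of 21 were lower and 0 higher in diabetic cells, against 3.9% and 4.77% of all genes, with Spp1, osteopontin, at 0.0202 (112.5 and 2.27 CPM) and Cytl1 at 0.119, and in VSMCs-1 5 of 12 were lower and 0 higher, against 4.82% and 3.23%, with Cytl1 at 0.0571, Spp1 at 0.0640 and Lum, lumican, at 0.0953. Outside muscle the list differed by class. In diabetic Fib-2 12 of 22 genes were lower and 0 higher, against 3.62% and 5.43% of all genes. In diabetic Mac 9 of 16 were lower and 4 higher, against 5.66% and 8.79%. The median log2 ratio of the list was -0.07 in ECs, -0.11 in Fib-1 and 0.20 in Fib-3. Over all genes it was -0.03, -0.08 and -0.08 in these classes. Between the classes the list was mixed. In control VSMCs-1 4 of 20 were higher (Cytl1 at 3.38, Sox9 at 2.58, Lum at 2.55 and Spp1 at 1.59) and 6 lower, among them Fn1, fibronectin, at 0.505, and in diabetic VSMCs-1 3 of 18 were higher, with the cartilage factor Sox9 at 5.39, and 2 lower. Several of the list, such as Spp1, Lum and Dcn, are also transcripts of macrophages or fibroblasts, whose markers differed between the libraries as given above. Dcn, Lum, Col1a1 and Col1a2 are also among the fibroblast markers, and Cd68 among the macrophage markers. The marker sums and the counts of this list are therefore not separate observations.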

How the data were processed

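Aortic cells of 2 groups, 1 pooled library of 4 mice each, were profiled on a droplet platform that counts 3' tags. The deposited matrices hold UMI counts per gene and barcode, not normalized by the authors. The submitters' processing notes list Cell Ranger 3.1.0, Partek and the mm10 build. The annotation release and the way the classes were drawn are not given in the sources used here. Classes were taken from the authors' deposited table, and the 1155 control and 934 diabetic barcodes outside it were left out. The control and diabetic matrices held 15314749 and 17647604 UMIs.

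UMIs were summed per class and library and scaled to CPM. Ratios have exact conditional binomial 95% intervals, levels exact Poisson intervals and shares Clopper-Pearson intervals, all for counting error only, with no test across samples. Genes of the 31 are described in full where they define smooth muscle or pass the size rule (30 UMIs, 1.5-fold, interval excluding 1), and otherwise by range. Of each further list up to 4 genes a comparison, and those that went against it, are named, and some genes that this rule names are not reported here. The genes, lists and rules were chosen with earlier results of these data known, and the counts outside muscle and the cell-level concentration were added later. The 12 alternatives are given in the closing section. No doublet caller was run. Python 3.11.15 with numpy 2.4.6, pandas 2.3.3 and scipy 1.17.1 was used, with edgeR 4.0.16 in R 4.3.3 for TMM factors. Intervals were tried on simulated sums drawn with counting error alone. Such sums hold no spread between cells or mice, so the trial checks the calculation only.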

Additional observations from a re-analysis of the deposited data

Results flagged for a closer look

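Des is the gene that passed the size rule in opposite directions in the muscle classes when the diabetic library was set against the control library. The ratio was 0.381 in VSMCs-1 and 1.55 in VSMCs-2, and whether the classes differ in their response was not tested across samples, since each group is 1 library. The VSMCs-1 value rests on 39 control and 20 diabetic UMIs, and it no longer passed the size rule under 5 of 12 alternatives, over which it ran from 0.361 to 0.95. The VSMCs-2 value rests on 533 and 1694 UMIs and was lost under 2 of 12, with a range from 1.42 to 1.64.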

How the results depend on the processing

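No paired analysis was possible because each group is 1 library. Counts of genes past the size rule stayed within 1.5 times under 76 combinations of a comparison and an alternative, and moved in 20. A 2-fold rule, stricter by construction, left 0 genes higher and 0 lower in diabetic VSMCs-2 (4 and 1 at 1.5-fold), 1 lower in diabetic VSMCs-1 (2), 0 higher and 2 lower in control VSMCs-1 against VSMCs-2 (1 and 6), and 5 lower in diabetic VSMCs-1 against VSMCs-2 (15). Cells of 1000 to 4000 UMIs gave 2, 0, 1, 2, 2 and 4 for the same counts in that order, and reversed Sncg (1.10) and Dmpk (0.777) between libraries in VSMCs-2 and Dmpk (1.59) between classes in the diabetic library. Control VSMCs-1 against VSMCs-2 had 13 lower with TMM scaling, 2 with every cell weighted equally, and 3 lower and 2 higher with cells thinned to 1000 UMIs. The count lower in diabetic VSMCs-1 was 1 with thinned cells, without the 5% deepest cells and without the top cell of each gene, and 0 at a minimum of 100 UMIs, where fewer genes are counted. With thinned cells and with cells of 1000 to 4000 UMIs, that 1 was Pdlim3, and neither Des nor Sncg was past the rule. Other than for the 2-fold rule and that minimum, the cause was not tested. Depth limits Myocd, Srf and Synm in VSMCs-1, which had at most 13 UMIs a library.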

Other observations

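Barcodes to which the authors gave no class also held contractile transcripts. In the control library 1155 such barcodes gave 1.59% of their UMIs to the 31 genes. Of these, 902 were within the gene and mitochondrial limits of annotated cells and held at most 50% haemoglobin UMIs. Those 902 had a median share of 2.04% with quartiles of 1.78 and 2.31%. Annotated control cells as a whole gave 2.69%, and their single-cell shares were spread from 0.165% at the 10th percentile to 9.80% at the 90th. In the diabetic library 934 such barcodes gave 0.946%, and 487 of them held over 50% haemoglobin UMIs. Only 9 of the 934 were within the limits that 902 control barcodes met, so the libraries differed in which barcodes were left without a class.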
